A study of Mus musculus with 6 samples.

Results

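Cell cycle genes of replication and mitosis were examined in RNA of epithelial cells washed off the mouse colon. The set holds 46 genes, chosen by name from a list of proliferation genes, among 16757 genes tested. Earlier results of these data were known when the set was chosen. Of the 46 genes, 20 act in entry into S phase and DNA replication, 23 act in chromosome segregation and cell division, and 3 are transcription factors of both programmes. All 46 were matched by symbol in the deposited comparison and all 46 passed the filter on low counts.

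The wash used EDTA and DTT. The tissue came from unchallenged mice aged 2 months, 3 libraries of wild type and 3 of Lingo2-/- mice, which lack a leucine-rich repeat membrane protein. No treatment and no further allele is given in the labels, which do not say how the mutant allele was made or whether each library is a separate animal. All p-values below thus rest on the spread of these libraries, which may be technical. The depth was 25010618 to 28029583 reads in genes for the wild type libraries. Each mutant library was shallower, at 7060769 to 13047682 reads. Mitochondrial genes took 45.3% to 48.4% of the wild type reads and 35.7% to 39.8% of the mutant reads. Lingo2 itself was almost unread, with 7 reads in wild type replicate 2, 1 read each in mutant replicates 1 and 2 and 0 in the other libraries, so that the genotype could not be checked from its level.

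As background, cells of the colon divide in the lower crypt, where stem cells and their transit-amplifying progeny renew an epithelium that is shed at the surface. Before S phase, Cdc6 and Cdt1 load the ring-shaped Mcm2 to Mcm7 helicase on DNA. Cyclin E with Cdk2, then Cdc45 and the GINS complex, start it. Factors of the E2F family switch on this first set of genes. A later set, switched on by Mybl2, Foxm1 and the MuvB complex, brings cyclin B with Cdk1, the Aurora and Polo kinases and the spindle motors for mitosis.

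The promoters of 4 members are shown because replication and mitosis genes are known to carry different promoter elements. The sequences are RefSeq promoters on GRCm38.p6, from 250 bases before to 50 after the annotated start, on the strand of the gene. Plk1, the mitotic Polo kinase, lies at chr7:122159185-122159484 on the plus strand. Cdk1, the mitotic cyclin-dependent kinase, lies at chr10:69352863-69353162, Mcm3, a helicase subunit, at chr1:20820263-20820562 and Pcna, the sliding clamp of the polymerases, at chr2:132253131-132253430, each on the minus strand. Plk1 is the member called between genotypes, Mcm3 and Pcna had groups that did not overlap, and Cdk1 is a kinase of the same set whose groups overlapped. Capitals mark the searched motifs given below the sequences.
Plk1: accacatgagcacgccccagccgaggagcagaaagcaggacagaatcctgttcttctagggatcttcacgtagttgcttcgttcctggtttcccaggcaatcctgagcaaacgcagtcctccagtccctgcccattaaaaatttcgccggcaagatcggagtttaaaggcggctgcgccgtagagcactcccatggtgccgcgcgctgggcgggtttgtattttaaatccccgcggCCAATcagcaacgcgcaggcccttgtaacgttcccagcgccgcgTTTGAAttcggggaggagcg
Cdk1: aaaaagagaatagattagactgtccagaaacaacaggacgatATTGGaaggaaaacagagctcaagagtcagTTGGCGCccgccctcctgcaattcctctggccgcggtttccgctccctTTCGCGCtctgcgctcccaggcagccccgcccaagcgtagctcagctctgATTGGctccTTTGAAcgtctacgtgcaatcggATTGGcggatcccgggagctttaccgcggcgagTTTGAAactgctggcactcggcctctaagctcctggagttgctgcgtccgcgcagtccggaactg
Mcm3: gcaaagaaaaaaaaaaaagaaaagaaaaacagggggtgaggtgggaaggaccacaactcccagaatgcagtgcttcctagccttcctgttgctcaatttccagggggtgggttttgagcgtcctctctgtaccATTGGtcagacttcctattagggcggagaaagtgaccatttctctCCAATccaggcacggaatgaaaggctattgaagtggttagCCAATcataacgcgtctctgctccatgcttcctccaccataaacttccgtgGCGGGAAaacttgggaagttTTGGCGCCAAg
Pcna: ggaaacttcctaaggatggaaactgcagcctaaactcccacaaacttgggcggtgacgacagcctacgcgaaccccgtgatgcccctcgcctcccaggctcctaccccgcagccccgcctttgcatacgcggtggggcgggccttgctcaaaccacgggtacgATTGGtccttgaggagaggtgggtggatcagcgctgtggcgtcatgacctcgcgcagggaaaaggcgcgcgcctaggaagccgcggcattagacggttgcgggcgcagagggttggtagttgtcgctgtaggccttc

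The motifs were the NF-Y box CCAAT, the cell cycle homology elements TTTGAA and TTCGAA, and 4 E2F elements, all searched on both strands. The E2F elements were spelled TTCGCGC in the first form, TTGGCGC in the second form, TTCCCGC in the third form or TTGCCGC in the last form. The complement of CCAAT can share letters with TTGGCGC, as both hold TTGG. RefSeq promoters were found for 37 of 46 members (40 promoters). A homology element stood in 80% of 20 promoters of mitosis members, 16.7% of 18 promoters of replication members and 14.4% of 14501 promoters of tested genes. For E2F elements the order was the reverse, with 66.7% of replication promoters, 15% of mitosis promoters and 15.3% of promoters of tested genes. CCAAT was held by 77.8%, 90% and 37% of these. Over all 32851 promoters of the table the shares were 19.2% for homology elements, 9.57% for E2F elements and 37.4% for CCAAT. The Plk1 window holds CCAAT starting 14 bases upstream and TTTGAA starting at base 31 of the transcript, while Cdk1 holds TTTGAA at 71 and 15 bases upstream and also E2F elements. Pcna holds CCAAT and none of the searched E2F letters in this window. A match is a description of letters and not a binding site.

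**Figure D1:**
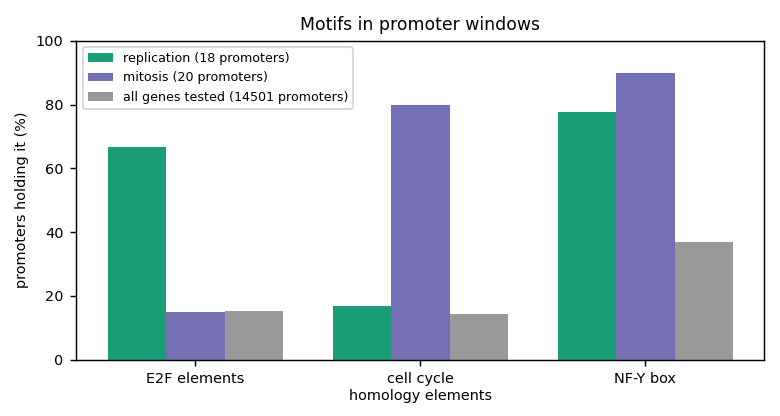
Share of RefSeq promoter windows (percent, vertical axis) that hold any searched E2F element, any cell cycle homology element or the NF-Y box, for replication members, mitosis members and all genes tested. E2F elements are in 66.7% of replication and homology elements in 80% of mitosis promoters, against 15.3% and 14.4% of promoters of tested genes.

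Between the genotypes, 1 of 46 members was called, Plk1, which was 1.5-fold higher in the mutant libraries. Over all genes tested 2.57% were called, 1.04% higher and 1.52% lower, taking an adjusted p under 0.05 (edgeR's quasi-likelihood test, Benjamini-Hochberg). No member was called lower, while 6 members, all of replication, were lower at an unadjusted p under 0.05, a level that 9.64% of all genes passed in that direction. The 1 member that was higher at that level was Plk1, against 9.01% of all genes. DESeq2 and limma voom also called no member lower. Plk1 was called by DESeq2 (adjusted p = 0.00876) and not by limma voom (adjusted p = 0.0678). Its call held in 7 of 15 alternative settings. The 95% interval of the fold change lay within 2-fold in either direction for all 46 members and within 1.5-fold for 34 of them. Replication members lay mostly below 0, with 15 of 20 negative and a median log2 fold change of −0.17. Mitosis members had a median of −0.07, with 17 of 23 negative. The median over all genes was 0.00098, and 49.9% were negative.

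**Figure D2:**
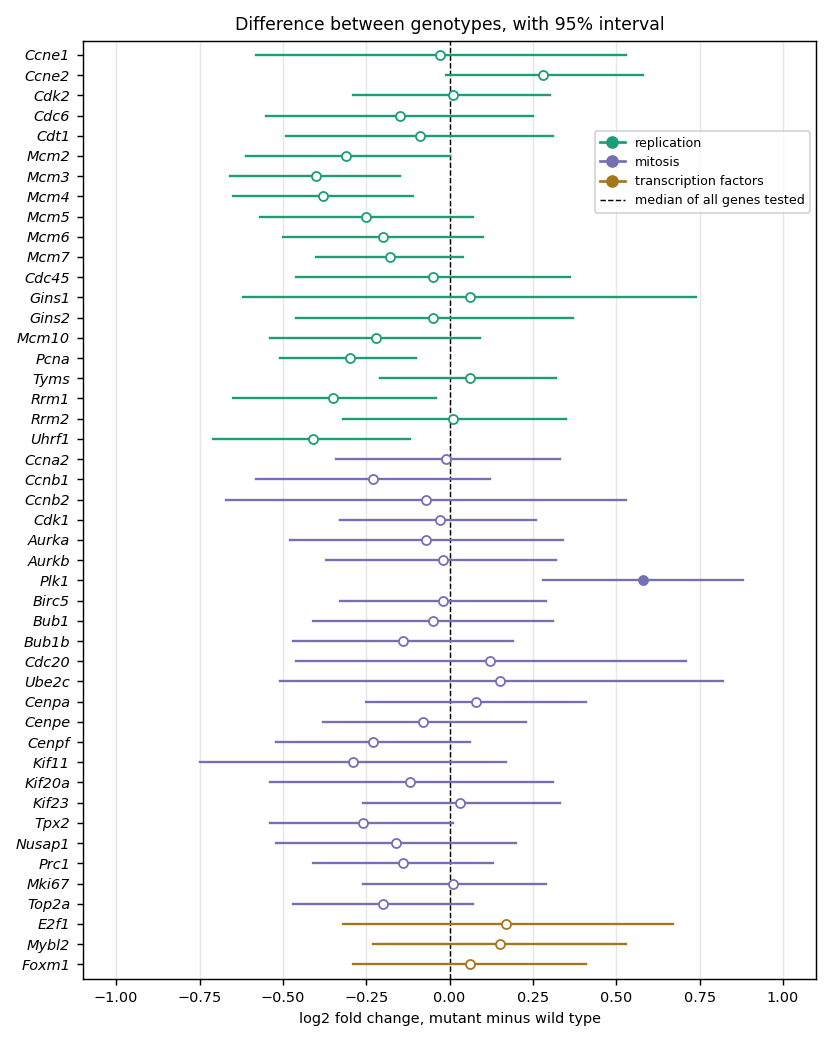
Fitted log2 fold change of each member (mutant minus wild type, horizontal axis) with its 95% interval; filled points passed the test and the dashed line is the median of all genes tested. Plk1 at 0.58 is the filled point, and the Mcm helicase genes lie between −0.40 and −0.18.

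In the replication set, all 8 genes of origin licensing lay below 0 (−0.40 to −0.09), without any passing the test. Mcm3, a subunit of the helicase ring (chromosome 1, 20802968 to 20820312, minus strand), was at 17.0, 15.3 and 15.7 CPM in wild type replicates 1, 2 and 3. CPM are reads of a gene over all reads of the library, scaled by TMM, and are compared here between libraries of a gene. The mutant replicates were at 11.1, 12.8 and 12.5 CPM, all below the wild type values. The log2 fold change of Mcm3 was −0.40 ± 0.12 (SE, edgeR adjusted p = 0.0925). Mcm4, another subunit of the ring, stood at 18.0, 16.0 and 14.7 CPM in wild type and 11.5, 13.0 and 13.1 CPM in mutant libraries. These groups did not overlap either (−0.38 ± 0.12, edgeR adjusted p = 0.124).

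Mcm2, the ring subunit that also binds histones, was at 15.8, 15.6 and 14.1 CPM in wild type and 10.8, 11.3 and 15 CPM in mutant libraries. Mutant replicate 3 lay among the wild type values (−0.31 ± 0.14, edgeR adjusted p = 0.266). The same library was as high as the highest wild type library for Mcm6, at 23.6, 26.5 and 35.5 CPM in mutant replicates 1, 2 and 3 against 35.5, 31.7 and 30.6 CPM in wild type (−0.20 ± 0.14, edgeR adjusted p = 0.471). Mcm5 (−0.25 ± 0.15) and Mcm7 (−0.18 ± 0.10) lay in the same range, and the groups of Mcm7 did not overlap. Exons of Mcm7 share bases with Ap4m1 and Cops6 on the other strand, so its count is less certain. Summed over the 6 ring subunits, the level was 134, 124 and 121 CPM in wild type and 92.1, 106 and 120 CPM in mutant replicates 1, 2 and 3. Mutant replicate 3 came close to the lowest wild type library, and mutant replicate 1 was the lowest of all. The loaders Cdc6 (−0.15 ± 0.18) and Cdt1 (−0.09 ± 0.18) had groups that overlapped.

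The ring subunits, which are built into the helicase in equal numbers, differed in their values per length. In CPM per kilobase of exon they ranged from 2.18 for Mcm2 to 6.99 for Mcm6 in wild type and from 1.78 to 6.12 in mutant libraries. The ratio of Mcm6 to Mcm3 per length was 1.68, 1.67 and 1.57 in wild type replicates 1, 2 and 3 and 1.71, 1.66 and 2.29 in mutant replicates 1, 2 and 3. Mutant replicate 3 stood apart from the other libraries in this ratio. Exon length is the union over all annotated transcripts of a gene, 6956 bases for Mcm2 and 3752 for Mcm3. Mean wild type CPM were 15.2 for Mcm2 and 16.0 for Mcm3. A comparison of genes per length thus depends on the annotation.

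Pcna (chromosome 2, 132249162 to 132253314, minus strand) had the highest level per length in the replication set, 18.7 ± 0.925 CPM per kilobase in wild type (SD, n = 3) and 15.1 ± 1.20 in mutant libraries. Its CPM were 47.3, 44.6 and 42.9 in wild type and 37.8, 33 and 38.2 in mutant libraries, which did not overlap (−0.30 ± 0.09, edgeR adjusted p = 0.112). Rrm1, the large subunit of ribonucleotide reductase that makes deoxynucleotides, was at 27.0, 24.9 and 23.5 CPM in wild type and 18.1, 16.5 and 24.8 CPM in mutant libraries. Mutant replicate 3 overlapped the wild type range (−0.35 ± 0.14, edgeR adjusted p = 0.207). Its partner subunit Rrm2, the S phase subunit, was at 8.73 ± 0.814 and 8.90 ± 1.28 CPM (0.01 ± 0.15). Per length, the ratio of Rrm1 to Rrm2 was 0.833, 0.648 and 0.704 in wild type and 0.583, 0.481 and 0.605 in mutant libraries. Here all 3 mutant ratios were below all wild type ratios. Their size, but not their order between libraries, depends on exon lengths of 11012 bases for Rrm1 and 2771 for Rrm2. Ratios of the cyclins Ccne2 to Ccne1 (2.01 to 3.09 in wild type, 2.41 to 4.3 in mutant) overlapped between genotypes. So did those of Ccnb1 to Ccnb2 (0.402 to 0.421 in wild type, 0.305 to 0.53 in mutant). How often ratios of other genes part the groups was not tested. Tyms, thymidylate synthase, stood at 0.06 ± 0.12.

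Uhrf1, which brings the maintenance DNA methyltransferase to newly replicated DNA (chromosome 17, 56303321 to 56323486, plus strand), had the lowest fitted value in the set. It was at 20.6, 23.1 and 20.5 CPM in wild type and 15.4, 13.2 and 19.7 CPM in mutant libraries. The groups did not overlap, though mutant replicate 3 came close (−0.41 ± 0.14, edgeR adjusted p = 0.132). With no filter on low counts, where 28829 genes were tested and fitted, Mcm3 (edgeR adjusted p = 0.0449), Rrm1 (0.0449) and Uhrf1 (0.0164) passed, and under no other alternative did any of them pass.

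The kinase and helicase activators of the set showed no common direction. Cyclin E2 (Ccne2) was higher in each mutant library, at 9.58, 9.85 and 9.14 CPM against 7.41, 7.76 and 8.31 CPM in wild type (0.28 ± 0.13, edgeR adjusted p = 0.281). Of its exon bases, 17.4% are shared with Ints8 on the other strand (0.09 ± 0.11). Cyclin E1 (Ccne1) was at −0.03 ± 0.25 and their kinase Cdk2 at 0.01 ± 0.13. Ccne1 had the lowest level per length of the replication set, with 14 to 64 reads per library. Mcm10, which helps to open the helicase at origins, was at −0.22 ± 0.14. Cdc45 (−0.05 ± 0.19), Gins1 (0.06 ± 0.31) and Gins2 (−0.05 ± 0.19), the activators of the ring, overlapped between genotypes, and 67.3% of Gins2 exon bases lie in Gse1 on the other strand. In all, 5 of 20 replication members had 3 mutant values below all wild type values, against 11.8% of all genes, and 1 had them above, against 12.3%.

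**Figure D3:**
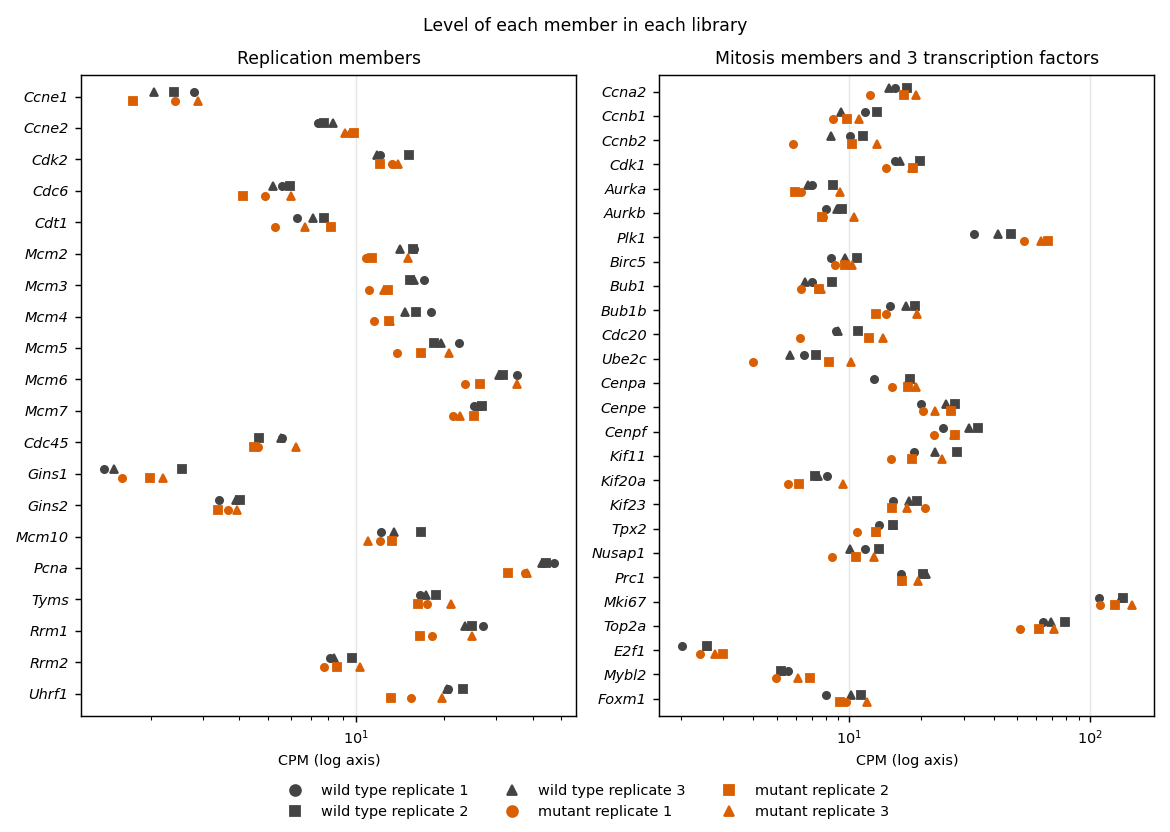
CPM of each of the 46 members in each of the 6 libraries (horizontal log axis), wild type in grey above and mutant in orange below, with marker shape for the replicate. Mcm3, Mcm4 and Pcna show mutant points left of the wild type points, Plk1 shows them to the right, and Mki67 overlaps.

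In the mitosis set Plk1, the kinase of mitotic entry, spindle assembly and cytokinesis, was the exception among 23 genes. Plk1 (chromosome 7, 122159439 to 122169873, plus strand) was at 33.1, 47.3 and 41.7 CPM in wild type replicates 1, 2 and 3 and at 53.4, 67.3 and 62.7 CPM in the mutant replicates. The groups did not overlap, and the rise was 0.58 ± 0.13 on the log2 scale (95% interval 0.28 to 0.88, edgeR adjusted p = 0.0480). The authors' deposited table gives Plk1 an adjusted p of 0.00787, the only member under 0.05 in that table, where 4.71% of 14338 genes were. The edgeR call sat at the threshold, and it held in 7 of 15 alternatives (adjusted p from 1.32e-05 to 0.162). It ended without wild type replicate 1 (0.0894) or 3 (0.0756) and without mutant replicate 2 (0.162) or 3 (0.161), with values of 0.449 to 0.596 in these fits.

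Plk1 also stood apart in level per length. By this measure it was the highest mitosis member, at 18.5 ± 3.27 CPM per kilobase in wild type. The median over the 23 genes was 2.95. Exon lengths of the set ran from 1531 bases for Ccnb2 to 15433 for Cenpf, with 2199 for Plk1. The gap to the median thus depends in part on the annotation. In CPM, Mki67 (128) and Top2a (70.6) were above Plk1 (40.7) in wild type. The ratio of Plk1 to Aurka, another mitotic kinase, per length was 5.44, 6.32 and 7.09 in wild type and 9.68, 12.9 and 7.90 in mutant replicates 1, 2 and 3. The 3′ end of Plk1 lies 19 bases from that of Ern2, a gene on the opposite strand (chromosome 7, 122169893 to 122186207) that encodes the stress sensor of the endoplasmic reticulum in mucus-secreting cells. Ern2 was more abundant, at 111, 133 and 132 CPM in wild type and 151, 164 and 163 CPM in the mutant group (0.35 ± 0.10, edgeR adjusted p = 0.0951). Plk1 reads per Ern2 read were 0.299, 0.356 and 0.316 in wild type and 0.353, 0.411 and 0.385 in mutant libraries, which overlapped. Dctn5, the gene upstream of Plk1 and a subunit of the dynactin complex, was at 0.37 ± 0.09 (edgeR adjusted p = 0.0549). Not every gene near Plk1 was higher. Palb2, beyond Dctn5, was at −0.16 ± 0.19 and Chp2, beyond Ern2, at 0.01 ± 0.18, and the groups of both overlapped. Of the Plk1 exon bases, 7.09% are shared with the gene model Gm44985 on the other strand, so its count is less certain. The strand setting of the counting is not given in the sources used here. The part of Ern2 or Gm44985 transcripts in the Plk1 count was not tested.

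**Figure D4:**
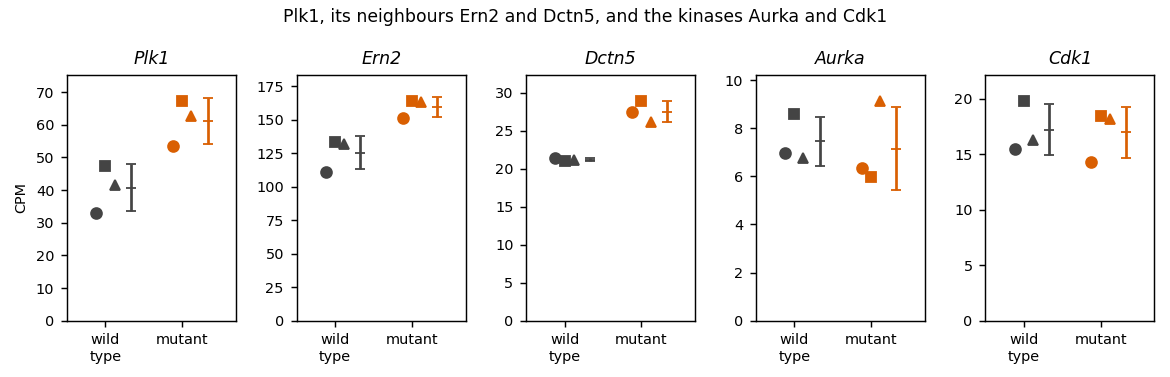
CPM (vertical axes from 0) of Plk1, its chromosomal neighbours Ern2 and Dctn5, and the mitotic kinases Aurka and Cdk1, with a point per library and the mean ± SD of 3 libraries beside them. Plk1 and Ern2 are higher in each mutant library, while Aurka and Cdk1 overlap between genotypes.

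The partners of Plk1 at mitotic entry did not follow it. Cdk1 was at 15.5, 19.8 and 16.3 CPM in wild type and 14.3, 18.4 and 18.2 CPM in mutant libraries, which overlapped (−0.03 ± 0.14). Its cyclin Ccnb1 was at 11.7, 13.1 and 9.29 CPM and 8.55, 9.85 and 11 CPM (−0.23 ± 0.16, edgeR adjusted p = 0.478). Ccnb2, the other B cyclin, spread more within the mutant group, at 5.86, 10.3 and 13.1 CPM in replicates 1, 2 and 3 (−0.07 ± 0.26). Cyclin A2 (Ccna2, −0.01 ± 0.15), the Aurora kinases Aurka (−0.07 ± 0.19) and Aurkb (−0.02 ± 0.16) and Birc5, which targets Aurora B to chromosomes (−0.02 ± 0.14), lay near 0. The 95% intervals were −0.33 to 0.26 for Cdk1 and −0.37 to 0.32 for Aurkb, so that a difference of 1.5-fold was outside both.

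Mki67, the coat protein of mitotic chromosomes that is used as a marker of dividing cells, was at 110, 138 and 135 CPM in wild type and 111, 127 and 150 CPM in mutant libraries. These values overlapped throughout (0.01 ± 0.13, 95% interval −0.26 to 0.29, edgeR adjusted p = 0.968). The fitted value of Mki67 was below 0 with upper quartile factors (−0.0082), among others. Top2a, the topoisomerase that untangles sister chromosomes, stood at 63.9, 78.8 and 69.2 CPM in wild type and 51.5, 61.9 and 71.4 CPM in the mutant group (−0.20 ± 0.12, edgeR adjusted p = 0.408). Here mutant replicates 1 and 2 lay below every wild type library and mutant replicate 3 did not.

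No spindle or centromere gene passed an unadjusted p under 0.05, with 5 of 6 spindle and cytokinesis genes and 2 of 3 centromere genes below 0. Tpx2, which activates Aurora A on the spindle, was at 13.3, 15.2 and 15.2 CPM in wild type and 10.8, 13.0 and 13.0 CPM in mutant libraries, without overlap (−0.26 ± 0.13, edgeR adjusted p = 0.287). Kif11, the motor that pushes spindle poles apart, was at 18.6, 28.1 and 22.8 CPM and 15, 18.2 and 24.3 CPM (−0.29 ± 0.20, edgeR adjusted p = 0.481). Cenpf, a kinetochore protein, was at 24.5, 34.3 and 31.5 CPM and 22.5, 27.5 and 27.4 CPM (−0.23 ± 0.13, edgeR adjusted p = 0.388). For both genes the groups overlapped. Of 23 mitosis members, only Tpx2 had all mutant values below all wild type values, against 11.8% of all genes. Plk1 alone had them above, against 12.3%. The other centromere members were Cenpa, the centromeric histone (0.08 ± 0.15), and Cenpe, a kinetochore motor (−0.08 ± 0.14). The cytokinesis genes Kif20a (−0.12 ± 0.19), Kif23 (0.03 ± 0.14) and Prc1 (−0.14 ± 0.12) and the spindle protein Nusap1 (−0.16 ± 0.17) overlapped as well. The exons of Kif20a share 29.3% of their bases with Cdc23 on the other strand. Such overlaps also make Ube2c (22.8%, with Tnnc2), Ccna2 (12.5%, with Exosc9) and Prc1 (11.1%, with Rccd1) less certain.

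Among the spindle checkpoint genes, Bub1 (−0.05 ± 0.16) and Bub1b (−0.14 ± 0.15) hold the anaphase-promoting complex in check. Cdc20 (0.12 ± 0.26) and Ube2c (0.15 ± 0.29) drive it. The drivers had a wide spread in the mutant group, as Cdc20 was at 6.27, 12.1 and 13.8 CPM and Ube2c at 4, 8.23 and 10.2 CPM in mutant replicates 1, 2 and 3. Wild type libraries lay within that range, at 8.83 to 10.9 CPM for Cdc20 and 5.71 to 7.27 CPM for Ube2c.

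None of the 3 transcription factors was called by edgeR, DESeq2 or limma voom, and none passed an unadjusted p under 0.05. E2f1, an activator of S phase genes, was at 2.02, 2.57 and 2.56 CPM in wild type and 2.41, 2.99 and 2.78 CPM in the mutant group (0.17 ± 0.23). Its counts were 44 to 69 and 24 to 35 reads per library. Mybl2, which links the S phase and mitotic programmes, was at 5.57, 5.22 and 5.20 CPM and 4.96, 6.86 and 6.13 CPM (0.15 ± 0.17). Foxm1, an activator of mitotic genes, was at 8.05, 11.2 and 10.2 CPM and 9.72, 9.22 and 11.9 CPM (0.06 ± 0.16). All these groups overlapped, with edgeR adjusted p-values of 0.686 to 0.872.

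For the mitosis set, the median difference between genotypes (−0.07) was smaller than each median difference between libraries of the same genotype (0.14 to 0.43). The first is fitted over 3 libraries per genotype and the others compare single libraries, which vary more, so the measures are unlike. For the replication set the fitted median was −0.17, beside −0.03 to 0.28 for the library pairs given below. The mean log2 CPM of the 23 mitosis genes was 3.89, 4.19 and 3.99 in wild type replicates 1, 2 and 3 and 3.72, 3.99 and 4.20 in mutant replicates 1, 2 and 3. Within the mutant group, 22 of 23 mitosis genes were higher in replicate 3 than in replicate 1, by a median of 0.43 on the log2 scale, while 49.5% of all genes were. The other mutant pairs had smaller shifts, with 19 of 23 higher in replicate 2 than in 1 (median 0.27) and 18 of 23 higher in replicate 3 than in 2 (median 0.20). Within wild type, 22 of 23 were higher in replicate 2 than in replicate 1, by a median of 0.30, against 51.9% of all genes. Replicate 2 was above replicate 3 for 20 of 23 (median 0.18) and replicate 3 above replicate 1 for 15 of 23 (median 0.14).

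Replication genes varied less within a genotype. Their mean log2 CPM was 3.51, 3.58 and 3.46 in wild type and 3.27, 3.31 and 3.54 in mutant replicates 1, 2 and 3. Mutant replicates 1 and 2 lay below all wild type libraries and mutant replicate 3 among them. Mutant replicate 3 was higher than replicate 1 for 18 of 20 replication genes (median 0.28, against 49.5% of all genes) and higher than replicate 2 for 15 of 20 (median 0.24, against 49.8%). Wild type replicate 2 was higher than replicate 3 for 16 of 20 (median 0.12, against 52.1%). The remaining pairs showed no common shift, with 11 of 20 higher in mutant replicate 2 than in 1 (median 0.06), 11 of 20 in wild type replicate 2 than in 1 (median 0.08) and 8 of 20 in wild type replicate 3 than in 1 (median −0.03). The mitosis mean exceeded the replication mean by 0.38, 0.60 and 0.53 in wild type and by 0.45, 0.69 and 0.67 in mutant libraries, which overlapped. The replication median remained negative whichever library was left out (−0.208 to −0.0924). The mitosis median was above 0 without wild type replicate 2 (0.042) or mutant replicate 1 (0.034).

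**Figure D5:**
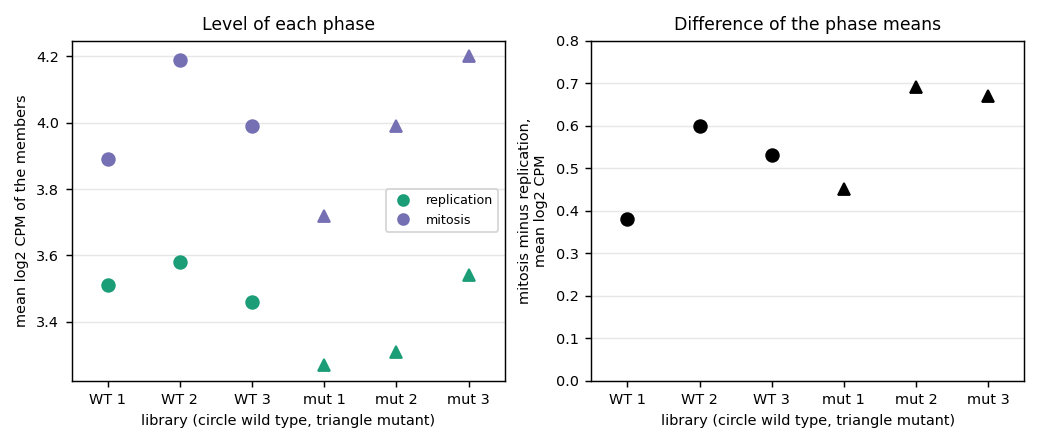
Left, mean log2 CPM of the 20 replication and 23 mitosis members in each library; right, the difference between the means of both sets. The mitosis mean runs from 3.72 in mutant replicate 1 to 4.20 in mutant replicate 3, and the difference of the sets from 0.38 to 0.69 with overlapping genotypes.

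Around these members, further genes of the same programmes were followed in lists chosen by name, with earlier results of these data known. Of 37 other replication genes tested, 1 was called lower, Rpa1, where 1.52% of all genes tested were. Rpa1 is the large subunit of the protein that coats single-stranded DNA at the fork. Rpa1 was at 29.2, 32.6 and 30.1 CPM in wild type and 20.1, 20.9 and 19.6 CPM in mutant libraries, far apart relative to the spread within each group (−0.60 ± 0.10, edgeR adjusted p = 0.00647). It was called in all 15 alternatives (adjusted p from 1.32e-05 to 0.0342). Its partner subunits were at −0.35 ± 0.17 (Rpa2, edgeR adjusted p = 0.279) and −0.16 ± 0.15 (Rpa3, edgeR adjusted p = 0.598). The list had 27 genes below 0, against 49.9% of all genes, and a median of −0.15. At an unadjusted p under 0.05 it had 3 lower and 1 higher, where 9.64% and 9.01% of all genes were. Fen1 was not tested.

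None of 38 other mitosis genes was called by edgeR, DESeq2 or limma voom, and 5 were lower at an unadjusted p under 0.05, a level that 9.64% of all genes passed in that direction. The median was −0.16 with 30 genes below 0, against 49.9% of all genes. Mad2l1, a spindle checkpoint protein, was at −0.33 ± 0.12 (edgeR adjusted p = 0.152) and the kinesin Kif18b at −0.55 ± 0.20 (edgeR adjusted p = 0.167). Both were among 6 genes of the list with all mutant values below all wild type values, against 11.8% of all genes. In the list 0 genes had them above, against 12.3%. Mad2l1 was at 15.4, 15.9 and 16.9 CPM in wild type and 11.4, 13.2 and 13.8 CPM in mutant replicates, and Kif18b at 5.66, 8.13 and 6.56 CPM and at 3.86, 4.99 and 5.32 CPM. Genes that control entry into the cycle had a median of 0.05 over 29 tested, with Tfdp1, a partner of E2F proteins, at 0.27 ± 0.09 (edgeR adjusted p = 0.143) and E2f2 at 0.42 ± 0.15 (edgeR adjusted p = 0.152). Tfdp1 was at 27.0, 28.9 and 28.1 CPM in wild type and 32.2, 32.9 and 36.2 CPM in the mutant. E2f2 was at 10.4, 13.9 and 11.5 CPM in wild type and 15.5, 18.6 and 14.0 CPM in the mutant. The inhibitor Cdkn1a was at −0.36 ± 0.19 and Cdkn1b at −0.01 ± 0.09. In the list of DNA damage and p53 targets the median was −0.10 over 18 genes, with Ccng1 (−0.34 ± 0.11, edgeR adjusted p = 0.118) and Gadd45a (−0.35 ± 0.13, edgeR adjusted p = 0.159), both p53 targets, having the smallest p. Ccng1 was at 75.6, 64.6 and 57.6 CPM in wild type and 48.7, 52.2 and 55.1 CPM in the mutant, and Gadd45a at 21.6, 16.9 and 22.0 CPM and at 15.4, 16.7 and 15.4 CPM. By all 3 tools none of the latter lists had a called gene, and at an unadjusted p under 0.05 the first had 1 lower and 3 higher and the second 4 lower, where 9.64% of all genes were lower and 9.01% higher.

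The cell types of the fraction also differed between genotypes by their markers, and in bulk RNA fewer cells of a type cannot be told apart from less RNA per cell. None of 8 general epithelial markers was called by edgeR, DESeq2 or limma voom, with summed levels of 3740 to 4590 CPM in wild type and 3820 to 4550 CPM in mutant libraries. All 8 markers of T lymphocytes fell by all 3 tools, from 367 to 453 CPM down to 158 to 181 CPM in sum. Of 8 crypt stem cell markers 2 rose by all 3 tools, Rgmb and Sox9, and the sums were 138 to 155 CPM and 157 to 202 CPM. Colonocyte markers summed to 6530 to 7750 CPM and 4950 to 6560 CPM, with 0 of 8 called by edgeR and limma voom and 1 lower by DESeq2 (Ceacam1). Of the goblet markers 2 of 8 rose by edgeR and DESeq2, Atoh1 and Spdef, and 3 by limma voom, with Clca1 added. Their sums were 13300 to 16100 CPM in wild type and 15800 to 22200 CPM in mutant libraries. Fibroblast sums overlapped (337 to 982 CPM and 229 to 500 CPM), with 1 of 8 markers (Mfap5) lower by edgeR and DESeq2 and 0 by limma voom. Macrophage sums overlapped too (85.3 to 102 CPM and 66.8 to 122 CPM). Here 2 of 8 markers were lower by edgeR and DESeq2 (Itgax and Tyrobp) and 1 by limma voom (Itgax). Over all genes tested, edgeR called 1.04% higher and 1.52% lower. B lymphocyte sums were 22.0 to 51.8 CPM and 43.9 to 47.1 CPM, and no marker of these lists had 0 reads in any library. The part of these markers in the replication and mitosis values was not tested.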

How the data were processed

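Total RNA was depleted of ribosomal RNA and made into stranded libraries, per the labels' protocols. Trimmomatic 0.39, STAR, HTSeq and DESeq2 with build GRCm38 are named in the submitters' processing notes. The authors deposited whole-number read counts per gene, not normalized, which were tested here. The summary lines of the counting tool stand for no gene and were dropped. Of gene reads and these lines together, the share outside any annotated feature was 18.5% to 22.1% (wild type) and 23.6% to 27.6% (mutant). The authors' deposited comparison holds a normalized signal per library, which was the count divided by a factor of that library for 100% of values (relative tolerance 1e-06), log2 fold changes with standard errors, a test score and p-values. Its p-values and symbols were used.

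The main test was that of edgeR 4.0.16, run under R 4.3.3 (filterByExpr, TMM, robust quasi-likelihood F test on genotype, Benjamini-Hochberg over 16757 genes). A standard error is the size of the log2 fold change over the root of its F. Log2 CPM used a prior count of 2. Exon lengths and positions came from GENCODE M21. An exon length is the union of exons over all annotated transcripts of a gene. A count of 0 allows up to 3 reads, 0.112 to 0.374 CPM, for counting error only. The procedure was tested on simulated counts. Alternatives were other scaling factors and filters, dispersions that are not robust, DESeq2 1.42.0, limma 3.58.1 voom, a replicate block, fewer genes and leaving out each library.

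Members, lists and rules were chosen with earlier results of these data known. Values per library are given for Mki67, Pcna, Top2a, Mcm3, the transcription factors, and in each set the 6 genes of smallest p and the 2 of highest level per length; in other lists for called genes, or the 2 of smallest p. Further genes with values per library (Cdk1, Ccne2, Ccnb2, Cdc20, Ube2c, Ern2), and those named with a fold change alone (Rpa2, Rpa3, Cdkn1a, Cdkn1b, Dctn5, Palb2 and Chp2), were chosen after their values were seen.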

Additional observations from a re-analysis of the deposited data

How the results depend on the processing

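Of 690 fitted values of members under alternatives, 623 kept their direction and their side of the threshold, 8 lost the call of Plk1, 3 gained a call and 56 changed sign, all of them uncalled values. The count of members called higher, 1 with the settings used, was 0 with upper quartile factors, a filter at 1 CPM in 3 libraries, dispersions that are not robust and limma voom (Plk1 adjusted p = 0.0576, 0.0528, 0.0618 and 0.0678), and 0 to 1 when 1 library was left out. Members called lower numbered 3 with no filter and 0 elsewhere. Over all genes 430 were called, 1490 with no filter, 672 with the DESeq2 test and 174 to 674 when 1 library was left out, with 174 without mutant replicate 2, 180 without mutant replicate 3 and 674 without wild type replicate 3. With no filter 28829 genes were tested; the cause of these differences was not tested. Values changed sign with upper quartile factors for Cdk2 (−0.0124), Rrm2 (−0.00572) and Mki67 (−0.00823), with no filter for Cdk2 (−0.0133), Rrm2 (−0.00649) and Mki67 (−0.00851), and with limma voom for Cdk2 (−0.0246), Rrm2 (−0.0232), Cdc20 (−0.00707) and Mki67 (−0.00444). When 1 library was left out, log2 fold changes that changed sign ranged as follows: Ccne1 −0.182 to 0.113, Cdk2 −0.0639 to 0.132, Gins1 −0.102 to 0.394, Rrm2 −0.107 to 0.108, Cenpa −0.0671 to 0.17, Kif23 −0.111 to 0.123, Mki67 −0.114 to 0.108, Foxm1 −0.064 to 0.165, Gins2 −0.115 to 0.00266, Ccna2 −0.156 to 0.167, Ccnb2 −0.352 to 0.226, Cdk1 −0.106 to 0.0811, Aurka −0.279 to 0.0462, Aurkb −0.184 to 0.0532, Birc5 −0.106 to 0.0688, Bub1 −0.129 to 0.0655, Cenpe −0.2 to 0.024, Cdt1 −0.26 to 0.071, Cdc45 −0.213 to 0.0262, Kif20a −0.378 to 0.0483, Tyms −0.0611 to 0.119, Cdc20 −0.117 to 0.425, Ube2c −0.157 to 0.495. The libraries share replicate numbers, but deviations of same-numbered libraries correlated at −0.126, 0.128 and −0.022, so the numbers were not taken as pairs, and not every library correlated best with its own number. With a replicate block 360 genes and 1 member, Plk1 (0.595, adjusted p = 0.0167), were called. Depth limits the genes with few reads, such as Gins1, with 16 to 23 reads in the mutant libraries.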
